A study of Zea mays with 45 samples.

Results

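In the maize leaf, 144 of 17555 probe sets (0.82%) peaked in the elongation zone at the end of the day (dusk below). Their level there lay at least 1.5 above that of the division zone and at least 1.5 above that of mature tissue, on the log2 scale of the deposited array values. These are called the elongation-zone peak genes, or members. They were chosen by the dusk arrays alone, so the zone differences at dusk describe the choice and were not tested. The arrays from the end of the night (dawn below) and from 6, 14 and 24 h of extended night took no part in it. At dusk the smaller of a member's leads over the other zones had a median of 2.07 and reached 6.44. It was the lead over the division zone for 102 members and the lead over the mature zone for 42. The members just inside the limit had smaller leads of 1.531 (gar2), 1.523, 1.515, 1.513 and 1.513, and the probe sets just outside it had 1.498, 1.496, 1.49, 1.485 and 1.484, the last being the aquaporin PIP2-1. The platform annotation gave a gene symbol to 19 members (13.2%, against 8.27% of all probe sets), and the other 125 are given by probe set identifier.

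A grass leaf grows from its base. Cells leave the division zone, then expand many times in length in the elongation zone, and stop growing as they enter the mature blade, where photosynthesis takes over. Expansion needs water uptake through membrane channels, loosening of the cell wall by proteins such as expansins, deposition of new cellulose along arrays of microtubules, and the secretion of lipids for the cuticle. Growth in the dark draws on stored carbohydrate, and when a night is prolonged that store runs out and plants turn on genes for the recycling of amino acids and lipids.

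All groups were leaves of the maize genotype that the labels call SL (KWS Einbeck), grown in a cycle of 14 h light and 10 h darkness. According to the labels no group carried a transgene, a mutation or an added compound. The division zone was the piece from 0 to 1.5 cm above the ligule (the collar between leaf sheath and blade), the elongation zone the piece from 3 to 4.5 cm above it, and the mature zone a mature part of the leaf whose position the labels do not give in cm. Each zone was taken at dusk, at dawn, and after the night had been prolonged by 6, 14 or 24 h in plants left in the dark. Each array held RNA pooled from 5 plants. Of 45 arrays, 42 had values. There were 3 in each of the 15 groups, except for 2 each in the dusk samples of the elongation zone and of the mature leaf and in the 6 h samples of the mature leaf. Dawn and 24 h of extended night fall at the same hour of the daily cycle, and so do dusk and 14 h. The 6 h and 14 h samples differ from dawn in both hour and length of darkness, and so do the 14 h from the 24 h samples. Each piece holds several cell types, so a different share of a cell type and a different amount of RNA per cell cannot be told apart in these values.

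The zones were checked against gene lists at dawn. The mean level of 14 photosystem and C4 genes was 7.14 in the division zone, 8.33 where cells elongate and 13.44 in mature tissue. That of 14 cell cycle and DNA replication genes was 9.66, 8.71 and 6.80 in the same order. Both orders are those of the labels. The lists planned as markers of the elongation zone were less clear. In the same order 12 expansins had means of 7.04, 7.52 and 6.85, and 12 tubulins 11.17, 11.44 and 8.92. Both of these lists include members. The only xyloglucan enzyme gene had 3.89, 3.79 and 12.30, so it was highest in mature tissue. The mature-zone array of replicate 3 at dawn differed from its group, with a cell cycle mean of 7.82 where the lowest array had 6.20. Without it the cell cycle mean of that group was 6.29. For the 25 members described one by one, 175 tested values use this array; without it 164 kept their side of the threshold, 6 were no longer called, 5 were newly called and none that was called changed sign. None of the 11 that moved is given below as a result. Among the members, 123 had a mean level above 6.19, the 95th percentile of the 66 reporter probe sets on the array, and 21 did not.

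The peak in the elongation zone was found again on arrays that had not chosen it. A member was called where limma gave a Benjamini-Hochberg adjusted p below 0.05. At dawn 139 of the 144 members (96.5%) were called higher in the elongation zone than in both other zones, against 9.32% of all probe sets. The count was 139 at 6 h (8.4% of all probe sets), 131 at 14 h (7.85%) and 132 at 24 h (9.55%). At all 4 times 126 members were called. The share of all probe sets called at all 4 was not computed, and it cannot exceed the 7.85% of 14 h. Taken singly, the lead over the division zone was called at dawn for 141 members and the lead over mature tissue for 142, with 1 member lower. Of all probe sets 19.8% were higher and 22.5% lower than in the division zone, and 37.6% higher and 38.7% lower than in mature tissue. At 6, 14 and 24 h 141, 134 and 133 members led the division zone (19.5%, 17.3% and 21.3% of all probe sets higher, 23.5%, 19.7% and 22% lower), and 141, 138 and 140 led the mature zone (35.6%, 34.8% and 33.7% higher, 42.6%, 45.8% and 46.5% lower). The margin of 1.5 was reached by all 144 at dusk because it chose them, so fewer reach it on other arrays even if no level moved. It was reached over both zones by 114 members at dawn (0.894% of all probe sets), 110 at 6 h (0.872%), 83 at 14 h (0.775%) and 94 at 24 h (0.934%). The median lead over the division zone was 2.03 at dawn and 1.78 at 24 h, and the median lead over the mature zone was 2.89 and 3.38. The medians over all probe sets lay between -0.18 and -0.01.

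The strongest members kept a very wide lead. Zm.7576.1.A1_at, with the largest dusk lead, had levels of 13.36, 13.14 and 13.31 in the elongation zone at dawn, 5.93, 6.29 and 6.03 in the division zone and mature-zone levels of 6.89, 7.15 and 6.85. At 24 h it stood at 13.35, 13.22 and 13.43 in the elongation zone, against 6.73, 7.34 and 7.57 and against 6.79, 8.25 and 6.69. The zones did not come near each other at either time. Zm.5654.1.A1_at, with the next largest lead, was 6.61 ± 0.19 (SE) above the division zone and 6.29 ± 0.19 above the mature zone at dawn (limma adjusted p = 3.1e-22 and 6.4e-24), and its lead over the mature zone changed by -0.96 ± 0.27 at 24 h (adjusted p = 0.0032).

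Only 2 members were called above both zones at none of the later times. Zm.11136.1.A1_at had levels of 5.19 and 5.79 in the elongation zone at dusk and 3.42, 3.34 and 3.50 at dawn, and every array from dawn on lay between 3.04 and 3.50 in all zones. Its peak was seen on those 2 dusk arrays only, and its mean level is below 6.19. Zm.4324.1.A1_at stayed in a broad growth-zone pattern, with 9.76, 10.30 and 10.45 in the elongation zone at 14 h, 8.57, 9.50 and 9.32 in the division zone and mature-zone levels of 5.18, 6.46 and 5.07. These 2 probe sets were named after their values were seen.

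**Figure D1:**
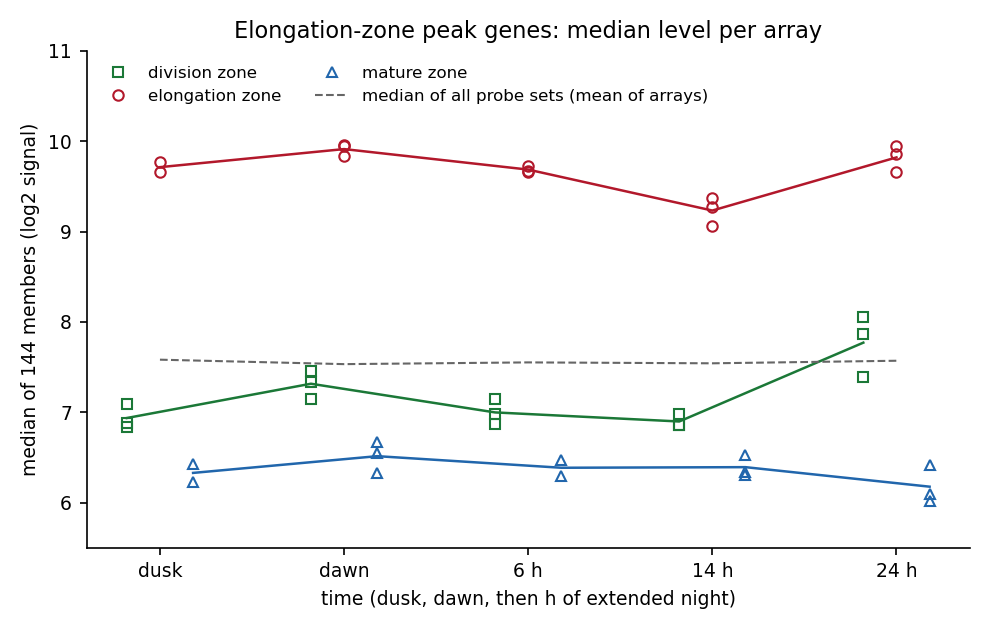
Median level of the 144 members on each array (log2 signal, open symbols) in the 3 zones at the 5 times, with lines through the means of the arrays and a dashed line for the median of all probe sets. The elongation-zone arrays lay between 9.058 and 9.366 at 14 h of extended night and between 9.658 and 9.959 at dawn, 6 h and 24 h.

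In the elongation zone the members dipped at 14 h of extended night and were back near their dawn level at 24 h. Their median level per array was 9.959, 9.836 and 9.941 at dawn, 9.669, 9.728 and 9.658 at 6 h, 9.272, 9.058 and 9.366 at 14 h, and 9.948, 9.658 and 9.854 at 24 h. The 14 h arrays lay below all others of this zone and did not overlap with them, while the 24 h arrays overlapped with those of dawn. The 14 h samples differ from those of dawn and 24 h in hour as well as in length of darkness. Against dawn, 75 members (52.1%) were called lower at 14 h and 14 (9.72%) higher, where 23.8% and 22.5% of all probe sets were. At 6 h 18 members were lower and 4 higher (4.27% and 4.74% of all probe sets), and at 24 h 22 were lower and 23 higher (20.6% and 21.8% of all probe sets), which as shares of the members are 15.3% and 16%. These counts depend on the fit. With array weights 39 members (27.1%) were higher at 24 h, against 25.9% of all probe sets, and with only the compared groups in each fit 38 (26.4%), against 23%. At 6 h 34 (23.6%) and 41 (28.5%) were lower under these fits, against 10.5% and 5.78% of all probe sets. With array weights 7 (4.86%) were higher at 6 h and 22 (15.3%) at 14 h, against 8.53% and 26.9%. The median change was -0.16 at 6 h, -0.57 at 14 h and 0.06 at 24 h, against -0.01, -0.03 and -0.05 over all probe sets.

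Of the 75 members lower at 14 h, 60 were called higher at 24 h than at 14 h, 51 were no longer called different from dawn at 24 h, 21 were still lower and 3 were above their dawn level. As shares of the 75 these are 80%, 68%, 28% and 4%, and among all 4177 probe sets lower at 14 h the shares were 31.6%, 32.1%, 66.7% and 1.22%. Because a probe set called lower at 14 h was picked on the 14 h arrays, a later rise from that level may come in part from the picking, in the members and in all probe sets alike. Over all members, 73 (50.7%) were called higher and 4 lower at 24 h than at 14 h, where 12.2% and 9.9% of all probe sets were. The most frequent courses were a fall at 14 h alone, in 43 members (29.9%, against 6.81% of all probe sets), and no call at any of the 3 times, also in 43 (29.9%, against 44.3%). At all 3 times 9 members were lower (6.25%, against 3.17%) and 3 higher (2.08%, against 4.18%). Some counts rested on single arrays. Without replicate 3 at 6 h, 7 members were lower at 6 h and 0 higher, without replicate 2 at 24 h 14 were lower at 24 h, and without replicate 2 at dawn 14 were higher at 24 h, while the 75 members lower at 14 h stayed between 66 and 74 whichever array was left out.

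Genes known to be induced by carbon starvation rose in the extended night, but their list was chosen with earlier results of these data known. The 6 such genes include an asparagine synthetase (AS) and the lysine-degrading enzyme lkrsdh1. In the elongation zone all were called higher than at dawn at 6, 14 and 24 h (4.74%, 22.5% and 21.8% of all probe sets). In the division zone 4, 6 and 4 of the 6 were called higher (3.14%, 20.7% and 17.9% of all probe sets) and 0 lower. Their mean level in the elongation zone was 7.56 at dawn, 10.06 at 6 h, 11.65 at 14 h and 9.93 at 24 h. In the division zone it was 7.06, 8.60, 11.23 and 8.80. Mature tissue had 8.81 (9.07 without replicate 3 of dawn), 10.47, 11.31 and 11.81, highest at 24 h. The starvation genes of the elongation zone were at their highest at 14 h, when the members' median there was at its lowest, 9.21. At 24 h they were still above dawn in both growing zones. The members were then back near their dawn level in the elongation zone. In the division zone the members' median lay above dawn at 24 h on all arrays but replicate 2. The part of the starvation genes in the dip was not tested.

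**Figure D2:**
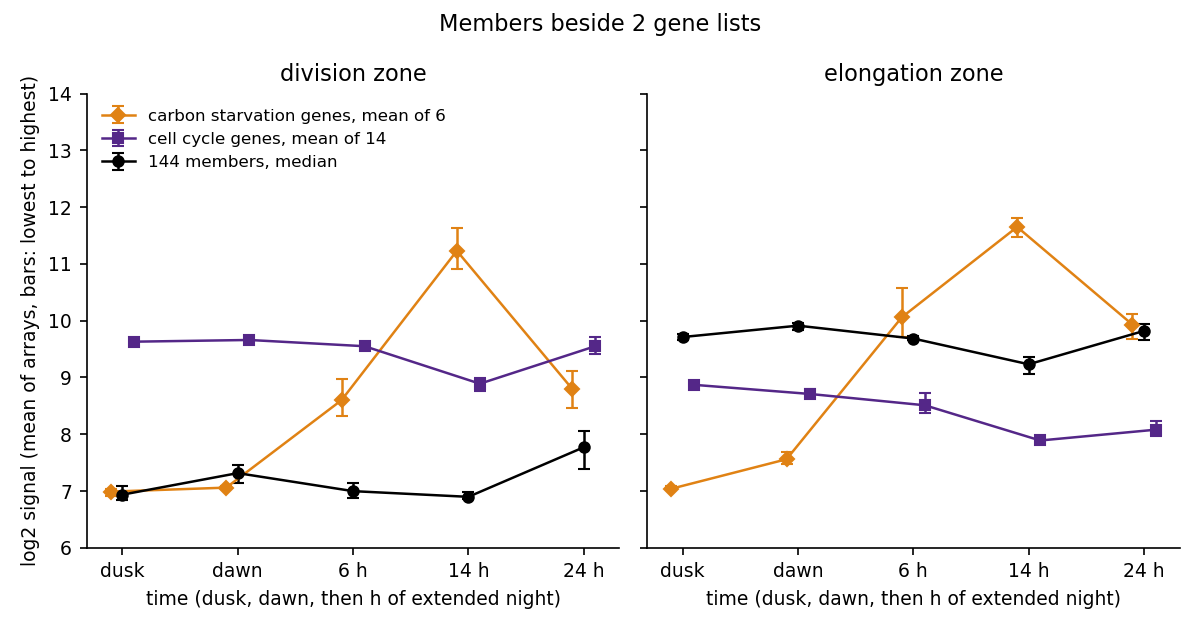
Median of the 144 members beside the mean of 6 carbon starvation genes and of 14 cell cycle genes (log2 signal; symbols are means of the arrays, bars run from the lowest to the highest array) in the division and elongation zones. The starvation genes were highest at 14 h in both zones (11.23 and 11.65). The members' 14 h arrays lay below all others in the elongation zone, and in the division zone they overlapped with those of dusk and 6 h.

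Among the members with a role in the cell wall and cytoskeleton were 2 expansins and a tubulin, and none of the 3 was called lower in the elongation zone at 24 h. The beta-expansin expB4 (Zm.672.1.A1_at) had elongation-zone levels of 9.74, 9.63 and 9.64 at dawn, 9.57, 8.92 and 9.70 at 14 h, and 10.24, 9.98 and 10.15 at 24 h. The 24 h arrays all lay above the rest, a rise of 0.45 ± 0.17 over dawn (SE; limma adjusted p = 0.033). In the division zone expB4 went from 6.99, 7.22 and 7.30 to 8.74, 8.82 and 8.93, a rise of 1.66 ± 0.17 (adjusted p = 5.7e-09). In the mature zone it fell by 0.67 (SE 0.17, adjusted p = 0.0012). The level in the division zone moved towards that of the peak and the level in the mature zone away from it.

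The alpha-expansin expA4 (Zm.13728.1.S1_at) had elongation-zone levels of 10.26, 10.08 and 10.05 at dawn, 9.75, 9.75 and 9.86 at 14 h, and 10.44, 9.94 and 10.57 at 24 h. The 14 h arrays were the lowest of these 9 and did not overlap with the others, a change of -0.34 (SE 0.12, limma adjusted p = 0.021). The 6 h arrays are not among the 9. At 6 h the lead over the mature zone had changed by -0.46 (SE 0.18, adjusted p = 0.067) and the mature zone itself by 0.15 (SE 0.14, adjusted p = 0.43), so the fall may not be particular to 14 h. The other probe sets of this gene do not all show the peak: Zm.13728.2.S1_a_at led the division zone by 1.10 at dusk, and Zm.13728.2.S1_at had a difference of -0.08 from it.

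The beta-tubulin tub4 (Zm.3257.1.S1_at) had elongation-zone levels of 11.92, 11.96 and 11.95 at dawn and 12.26, 12.10 and 12.31 at 24 h. In the mature zone the same probe set went from 8.73, 8.42 and 8.80 to 6.87, 7.43 and 6.39, a change of -1.76 (SE 0.24, limma adjusted p = 1.1e-07). Its lead over the mature zone therefore grew by 2.03 ± 0.34 (adjusted p = 6.3e-06), while it rose in the division zone by 0.76 ± 0.24 (adjusted p = 0.013).

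The wider lists of these families, which contain the members named above, showed how far the pattern extends among their annotated genes. Of 12 expansin genes, 4 were called higher and 1 lower than in the division zone at dawn, and 5 higher and 4 lower than in the mature zone. Of 12 tubulin genes, 3 were higher and 3 lower than in the division zone, but 12 of 12 were higher than in the mature zone. Of 12 cellulose synthase genes, none of which is a member, 8 were higher and 4 lower than in the division zone, and 8 higher and 3 lower than in the mature zone. Of the same 12, 7 were called lower at 14 h than at dawn and 0 higher (list median -0.52, against -0.03 over all probe sets). CesA-6 was 1.69 ± 0.14 above the division zone at dawn (limma adjusted p = 1.3e-11) and fell by 0.89 at 14 h (SE 0.14, adjusted p = 2.8e-06), and at 24 h 3 of the 12 were higher and 0 lower than at dawn.

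The water channels among the members took quite different courses. The plasma membrane aquaporin pip2d (Zm.15890.1.A1_at) had elongation-zone levels of 10.89, 10.88 and 11.02 at dawn, 10.15, 10.58 and 10.06 at 6 h, 9.11, 9.05 and 8.82 at 14 h, and 10.84, 9.49 and 10.74 at 24 h. The 14 h arrays lay well below the rest, a change of -1.94 (SE 0.29, limma adjusted p = 9.7e-07), and at 24 h 2 arrays were back at the dawn level and replicate 2 was not. From 14 h to 24 h the rise was 1.36 ± 0.29 (adjusted p = 0.00061). In the division zone pip2d stayed between 4.84 and 5.76 on all arrays from dawn on, so its lead over that zone changed by -1.63 ± 0.4 at 14 h (adjusted p = 0.015).

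The aquaporin of the NIP family, nip1a (Zm.2006.1.A1_at), climbed instead, with elongation-zone levels of 11.34, 11.23 and 11.28 at dawn, 11.71, 12.04 and 11.94 at 14 h, and 12.13, 11.78 and 11.98 at 24 h. Both later sets of arrays lay above dawn without overlap, by 0.61 ± 0.23 at 14 h and 0.68 ± 0.23 at 24 h (limma adjusted p = 0.029 and 0.017). It also rose in the division zone at 24 h, by 0.64 ± 0.23 (adjusted p = 0.032).

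The plasma membrane aquaporin pip2b (Zm.605.1.S1_a_at) lost its peak overnight. Its elongation-zone levels were 7.08 and 6.95 at dusk and 7.69, 7.43 and 7.41 at dawn. Its mature-zone levels were 5.45 and 5.35 at dusk and 8.30, 8.48 and 8.21 at dawn. The order of these zones was thus turned, with a difference between the elongation and the mature zone of -0.82 at dawn (SE 0.14, limma adjusted p = 2.3e-06). In the division zone pip2b then went from 6.05, 5.87 and 6.26 at dawn to 8.02, 8.36 and 7.82 at 14 h, a rise of 2.0 ± 0.14 (adjusted p = 1.7e-13), which brought it level with the elongation zone (difference 0.18 ± 0.14, adjusted p = 0.36).

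The probe set annotated as porin1 (Zm.171.1.A1_at) fell in the elongation zone by 0.72 at 14 h and fell by 0.52 at 24 h (SE 0.12 for both, limma adjusted p = 1.2e-05 and 0.00092), and in the mature zone it fell by 1.49 at 24 h (SE 0.12, adjusted p = 3.8e-12). A second probe set of porin1, Zm.171.1.A2_at, had no peak, with a lead over the division zone of -0.64 at dusk. On the list of 28 aquaporin genes, 3 of them members, 15 were called higher and 1 lower in the elongation than in the division zone at dawn, and 12 higher and 12 lower than in the mature zone. At 14 h 9 of the 28 were higher and 8 lower than at dawn, so the family as a whole did not move in one direction.

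**Figure D3:**
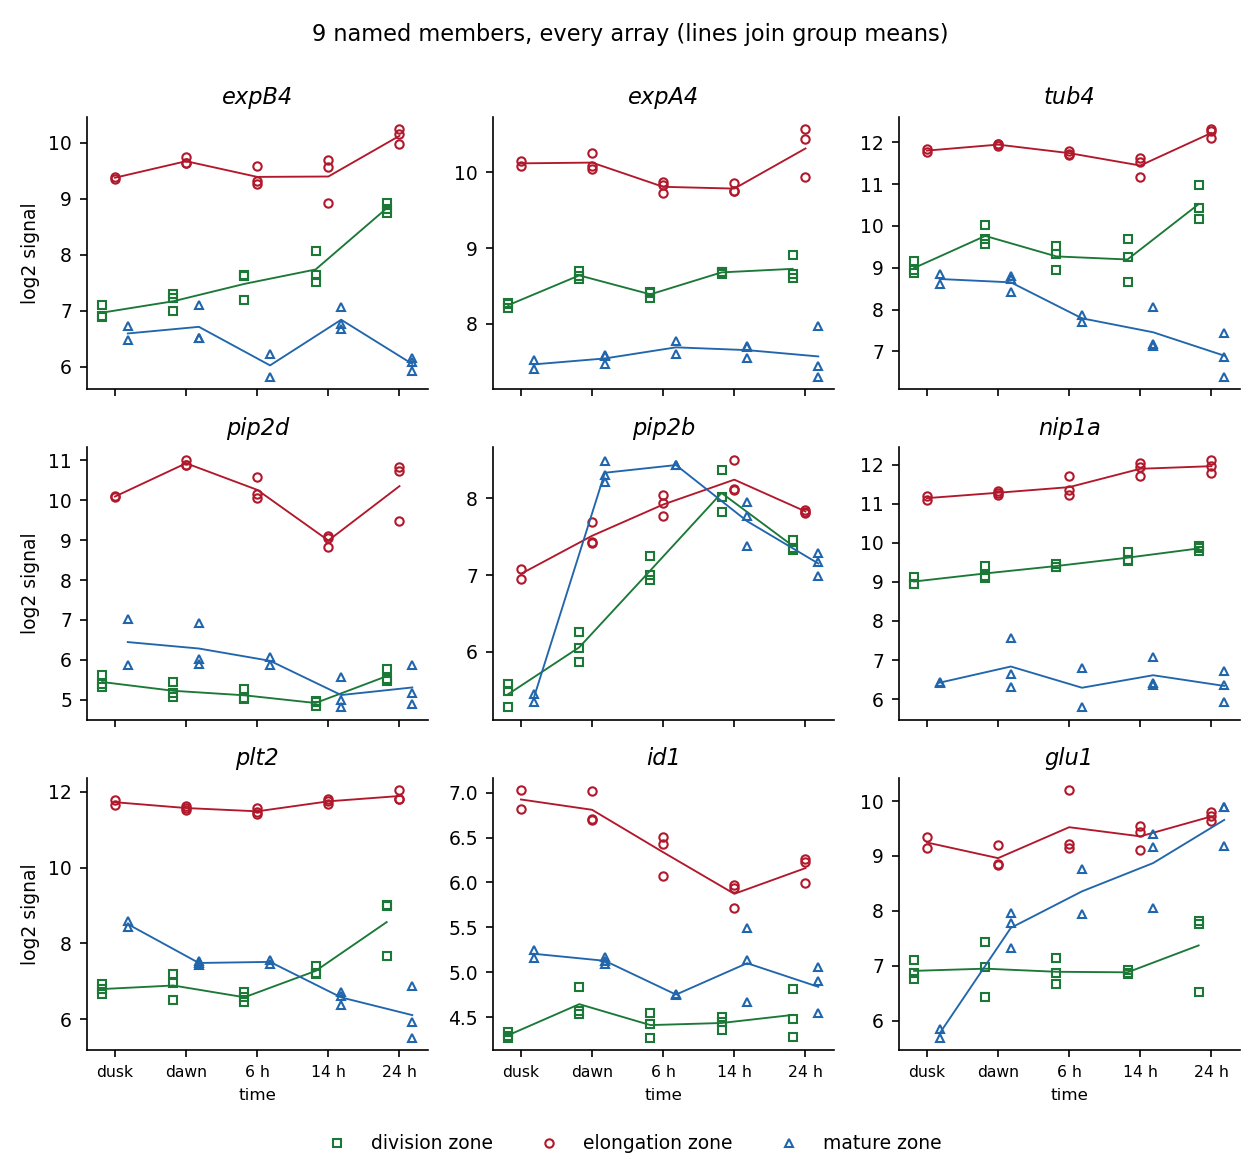
Levels of 9 named members on every array (log2 signal; squares, division zone; circles, elongation zone; triangles, mature zone; lines join group means; each panel has its own vertical axis). The elongation-zone circles lie above both other zones throughout for expB4, expA4, tub4, pip2d, nip1a, plt2 and id1, whereas in pip2b and glu1 the mature zone reached or passed them.

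The lipid transfer protein plt2 (Zm.714.1.A1_at), of a family that binds and carries lipids, held its elongation-zone level at 11.61, 11.58 and 11.51 at dawn and 11.80, 12.04 and 11.81 at 24 h. It moved in both neighbouring zones: the division zone went from 6.52, 6.96 and 7.20 to 8.99, 7.68 and 9.02, a rise of 1.67 ± 0.24 (limma adjusted p = 2.2e-06), and the mature zone from 7.54, 7.44 and 7.48 to 5.93, 6.89 and 5.52, a change of -1.37 (SE 0.24, adjusted p = 9.9e-06). In both zones replicate 2 of 24 h lay nearest to the dawn level.

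Among members with roles in defence and detoxification, glu1 (Zm.3633.1.A1_at), a beta-glucosidase that frees the toxic aglycones of benzoxazinoids, lost its peak to the mature zone. Its mature-zone levels were 5.85 and 5.69 at dusk, 7.78, 7.33 and 7.96 at dawn, and 9.90, 9.18 and 9.89 at 24 h, when the elongation zone had 9.80, 9.73 and 9.63. The rise in the mature zone was 1.97 ± 0.32 (limma adjusted p = 2.4e-06), and the difference between these zones at 24 h was 0.07 ± 0.32 (adjusted p = 0.85). It remained 2.35 ± 0.32 above the division zone (adjusted p = 2.5e-07).

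The glutathione transferases gst9 (Zm.540.1.A1_at) and GST26 (Zm.552.1.A1_at), of a family that attaches glutathione to reactive compounds, parted in their time courses. In the elongation zone gst9 had 11.82, 11.74 and 11.92 at dawn, 11.86, 11.73 and 11.95 at 14 h, and 12.10, 11.74 and 12.05 at 24 h, sets that overlap. GST26 went from 8.41, 8.58 and 8.20 to 7.66, 7.52 and 7.52 at 14 h and 7.97, 7.73 and 7.89 at 24 h, changes of -0.83 and -0.54 (SE 0.18 for both, limma adjusted p = 0.00025 and 0.016). The allene oxide synthase aos1 (Zm.6107.1.A1_at), an enzyme of jasmonate synthesis, was 1.89 ± 0.34 above the division zone at dawn (adjusted p = 2.8e-05) and 0.83 ± 0.34 above it at 14 h (adjusted p = 0.055). At 24 h it was again called above both zones, by 1.48 ± 0.34 and 1.71 ± 0.34 (limma adjusted p = 0.0006 and 4.1e-05).

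Of the 2 transcription factors, id1 (Zm.372.1.S1_at), the zinc finger protein INDETERMINATE1 that acts in immature leaves to promote flowering, was lower throughout the extended night. Its elongation-zone levels were 6.71, 6.70 and 7.02 at dawn, 6.51, 6.43 and 6.07 at 6 h, 5.71, 5.94 and 5.97 at 14 h, and 6.26, 6.23 and 5.99 at 24 h. All extended-night arrays lay below those of dawn, and the changes were -0.47, -0.94 and -0.65 (SE 0.15 for each, limma adjusted p = 0.046, 4.7e-06 and 0.00071). The SBP-domain factor sbp4 (Zm.238.1.S1_at) was not called at any time in any zone, and was 2.14 ± 0.21 above the division zone and 2.48 ± 0.21 above the mature zone at 24 h. Both probe sets are dim, with mean levels below 6.19.

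The remaining named members are prp2, gar2, LOC542000, LOC542057 and LOC542763. In the elongation zone prp2 fell by 0.76 at 14 h (SE 0.30, limma adjusted p = 0.035) and LOC542057 fell by 0.91 at 14 h and fell by 0.73 at 24 h (SE 0.21 for both, adjusted p = 0.00043 and 0.0043), the latter with 24 h arrays at 7.89, 6.31 and 7.68. Its other probe sets had no such peak: Zm.15663.1.S1_at led the division and mature zones by 0.82 and 0.63 at dusk and ZmAffx.85.1.S1_at by 0.19 and 0.34. Their elongation-zone changes from dawn were -0.21 and -0.04 at 14 h and -0.25 and -0.24 at 24 h. The member probe set of LOC542057 is itself dim, with a mean level below 6.19. LOC542000 had 10.98, 10.92 and 11.07 at dawn and 11.82, 9.98 and 11.43 at 24 h, with replicate 2 again the lowest. No elongation-zone call was made for gar2, LOC542000 or LOC542763, and in the division zone LOC542763 rose by 0.76 ± 0.22 at 24 h (adjusted p = 0.0075). Of the 19 named members, the zone differences of gar2 were the least precise, with an SE of 0.53.

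Among the members without a symbol, Zm.7164.1.A1_at showed the largest called rise at 24 h. In the elongation zone it had 9.10 and 9.21 at dusk, 10.15, 10.09 and 10.10 at dawn, 10.36, 10.73 and 11.82 at 6 h, 11.63, 11.89 and 11.84 at 14 h, and 12.45, 12.40 and 12.61 at 24 h. The sets rose in order, with overlap between 6 h and 14 h only, where replicate 3 of 6 h was already as high as the 14 h arrays, and the rise from dawn to 24 h was 2.37 ± 0.22 (limma adjusted p = 2.2e-10). The division zone rose by 0.80 ± 0.22 (adjusted p = 0.0047) and the mature zone had 5.94, 5.80 and 5.58 at dawn and 5.82, 6.33 and 5.59 at 24 h. The lead over both zones became larger, by 1.57 ± 0.31 and 2.23 ± 0.31 (adjusted p = 0.003 and 3e-07).

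Zm.14687.1.S1_s_at had the next largest rise, with elongation-zone levels of 6.12, 6.03 and 6.19 at dawn, 8.87, 9.43 and 8.73 at 14 h, and 8.67, 7.98 and 8.50 at 24 h. The rise at 24 h was 2.27 ± 0.28 (limma adjusted p = 6.1e-08). Its dawn level was below the 7.01 and 7.21 of dusk. The suffix of this probe set marks probes that can match several transcripts, and its mean level over all arrays is below 6.19.

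The largest falls at 24 h were those of Zm.1288.3.A1_s_at and Zm.2541.1.A1_at. Zm.1288.3.A1_s_at went from 11.12, 10.96 and 11.35 at dawn to 8.11, 7.53 and 8.03 at 14 h and 9.28, 8.64 and 9.06 at 24 h, changes of -3.26 and -2.15 (SE 0.33 for both, limma adjusted p = 7.3e-10 and 2.3e-06), and at 24 h it was 0.47 ± 0.33 above the division zone (adjusted p = 0.27). Zm.2541.1.A1_at had 9.0, 9.36 and 8.19 at dawn and 6.83, 6.40 and 6.96 at 24 h, with 24 h levels of 6.48, 5.86 and 6.51 in the division zone and mature-zone levels of 6.37, 6.51 and 6.34. At 24 h it had lost its peak, with leads of 0.45 ± 0.29 and 0.33 ± 0.29 (adjusted p = 0.23 and 0.3).

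In 2 further members, singled out after their values were seen, the peak vanished at 14 h and came back at 24 h. Zm.10803.1.S1_at had elongation-zone levels of 6.30, 6.15 and 6.53 at dawn, 5.15, 5.06 and 5.10 at 6 h, 3.53, 3.29 and 3.43 at 14 h, and 5.85, 4.70 and 5.37 at 24 h, while the division zone stayed between 3.01 and 3.27 and the mature zone between 3.25 and 3.62. Zm.3519.1.A1_at had 7.40, 7.26 and 7.12, then 5.89, 6.13 and 5.83, then 4.85, 4.72 and 5.13, and at 24 h 6.90, 5.85 and 6.88. Both stepped down at 6 h and again at 14 h without overlap between the sets, and on both the 24 h array of replicate 2 was the lowest of its set. Both are dim, with mean levels below 6.19, the 95th percentile of the reporter probe sets. Their elongation-zone levels at 14 h all lay below it.

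**Figure D4:**
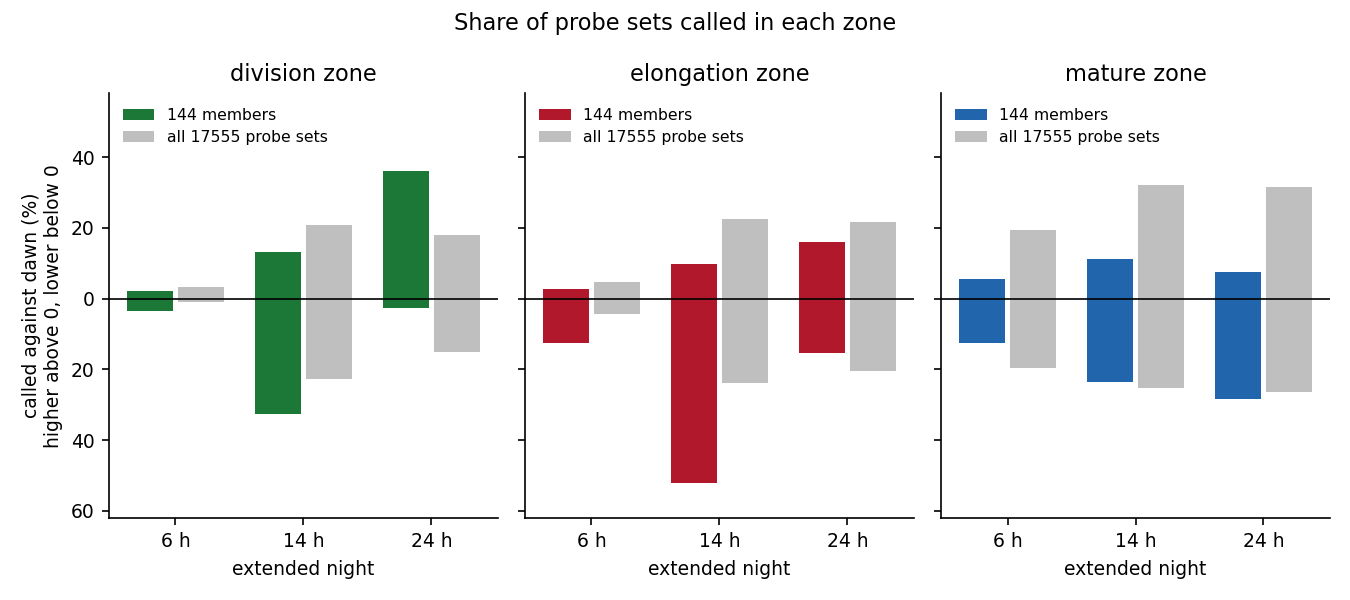
Share of the 144 members (coloured bars) and of all 17555 probe sets (grey bars) called higher (above 0) or lower (below 0) than at dawn at 6, 14 and 24 h of extended night, by zone, in percent. The members exceed the grey bars most in the elongation zone at 14 h, where 52.1% were lower, and in the division zone at 24 h, where 36.1% were higher.

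In the division zone the members' median was 7.29 at dawn and 7.73 at 24 h, and its 14 h arrays did not lie apart from those of dusk and 6 h. Its arrays had 7.149, 7.459 and 7.339 at dawn and 7.870, 7.386 and 8.055 at 24 h. Replicate 2 of 24 h thus lay within the range of dawn. At 14 h the arrays had 6.977, 6.856 and 6.861, which overlap with 6.838, 7.087 and 6.884 at dusk and with 6.872, 6.978 and 7.145 at 6 h. The median change from dawn was -0.24 at 6 h and -0.19 at 14 h. In this zone 47 members (32.6%) were called lower and 19 (13.2%) higher at 14 h, against 22.8% and 20.7% of all probe sets. At 24 h 52 were higher (36.1%, against 17.9% of all probe sets) and 4 lower (2.78%, against 15%). The median change at 24 h was 0.34, against -0.06 over all probe sets. Besides plt2, expB4, pip2b, tub4, LOC542763 and nip1a, the members higher at 24 h included Zm.11734.1.A1_at, with 8.51, 8.28 and 8.58 at dawn and 11.41, 11.91 and 11.55 at 24 h, the largest rise in this zone at 3.16 ± 0.34 (limma adjusted p = 9.3e-09), singled out after its values were seen. Of the 23 members higher in the elongation zone at 24 h, 20 were also higher in the division zone (87%, against 67.9% of the 3820 probe sets higher in the elongation zone). Both comparisons are made within their own zone and share no arrays. The calls are still not independent, since the fit takes a single spread per probe set from all arrays. Same-numbered samples of a time also tended to deviate together. At 6 h 3 members were higher and 5 lower in the division zone (3.14% and 0.911% of all probe sets), and from 14 h to 24 h 70 were higher and 5 lower (13.5% and 12.4%). The median change from 14 h to 24 h was 0.56, as it was in the elongation zone. With array weights 11 members (7.64%) were higher and 48 (33.3%) lower at 6 h, against 13.4% and 16.5% of all probe sets. Under the same fit 31 (21.5%) were higher at 14 h and 85 (59%) at 24 h, against 26.6% and 23.6%. With only the compared groups in each fit 36 (25%) were lower at 6 h and 8 (5.56%) at 24 h, against 4.63% and 21.1%. The count of 52 was 31 without replicate 3 of the division zone at 24 h and 61 without replicate 2.

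The lead over the division zone shrank for some members. The test of the change of lead called 26 members smaller and 2 larger at 14 h (18.1% and 1.39%, against 2.59% and 1.65% of all probe sets), and 13 smaller and 3 larger at 24 h (9.03% and 2.08%, against 1.77% and 1.85%). At 6 h 2 were smaller and 0 larger (0.0797% and 0.0684% of all probe sets). The change at 24 h was negative in 115 of 144 members, with a median of -0.35, against 0.01 over all probe sets. These counts depend on the fit, and so do the shares of all probe sets. With array weights 57 members (39.6%) were smaller at 14 h and 60 (41.7%) at 24 h, against 9.85% and 11.5% of all probe sets. Where each fit held only the groups it compared, 47 (32.6%) and 28 (19.4%) were smaller, against 5.56% and 5.41%. Single arrays moved the member counts too. At 14 h the count was 13 without replicate 3 of the elongation zone at dawn. At 24 h it was 5 without replicate 3 and 28 without replicate 2 of the division zone.

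In the mature zone the members were low throughout, and at 24 h fewer of them were higher than in the background. Their median level was 6.59 at dawn and 6.13 at 24 h, and 41 members (28.5%) were called lower and 11 (7.64%) higher, where 26.3% and 31.6% of all probe sets were. The median change was -0.22, against 0.04 over all probe sets. The lower members include tub4, porin1, plt2, pip2b, LOC542763, pip2d and expB4. At 14 h 34 were lower and 16 higher (25.3% and 32% of all probe sets), and at 6 h 18 and 8 (19.7% and 19.5%). With only the compared groups in each fit 20 were lower and 9 higher at 14 h (15% and 16.8% of all probe sets), 6 lower and 2 higher at 6 h (6.11% and 6.31%), and 6 higher at 24 h (23.6%). With array weights 22 were lower and 7 higher at 14 h (19.4% and 21.6%), and 4 higher at 6 h (12.1%). Without the dawn array that differed from its group, 38 were lower and 10 higher at 24 h, 33 and 13 at 14 h, and 20 and 9 at 6 h. Many members sit near the level of the reporter probe sets in this zone, and of the 66 reporter probe sets themselves 7 were called higher and 2 lower at 24 h.

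The lead over the mature zone changed in both directions. At 14 h 50 members had a smaller and 22 a larger lead than at dawn (24.1% and 21% of all probe sets), and at 24 h 16 a smaller and 37 a larger one (26.7% and 22%). At 6 h 17 were smaller and 6 larger (11.1% and 12.4%). The share of members with a larger lead at 24 h, 25.7%, is near the background of 22%, and the share with a smaller one, 11.1%, is below 26.7%. Without replicate 3 of the mature zone at dawn 56 were smaller and 21 larger at 14 h, 16 and 36 at 24 h, and 18 and 8 at 6 h. With array weights 10 were smaller at 6 h and 10 at 24 h (8.67% and 25.7% of all probe sets). The count of 16 was 9 without replicate 2 of the elongation zone at 24 h, that of 17 was 9 without replicate 3 of the mature zone at 6 h, which leaves a single array there, and that of 6 was 15 without replicate 2 of the mature zone at dawn.

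**Figure D5:**
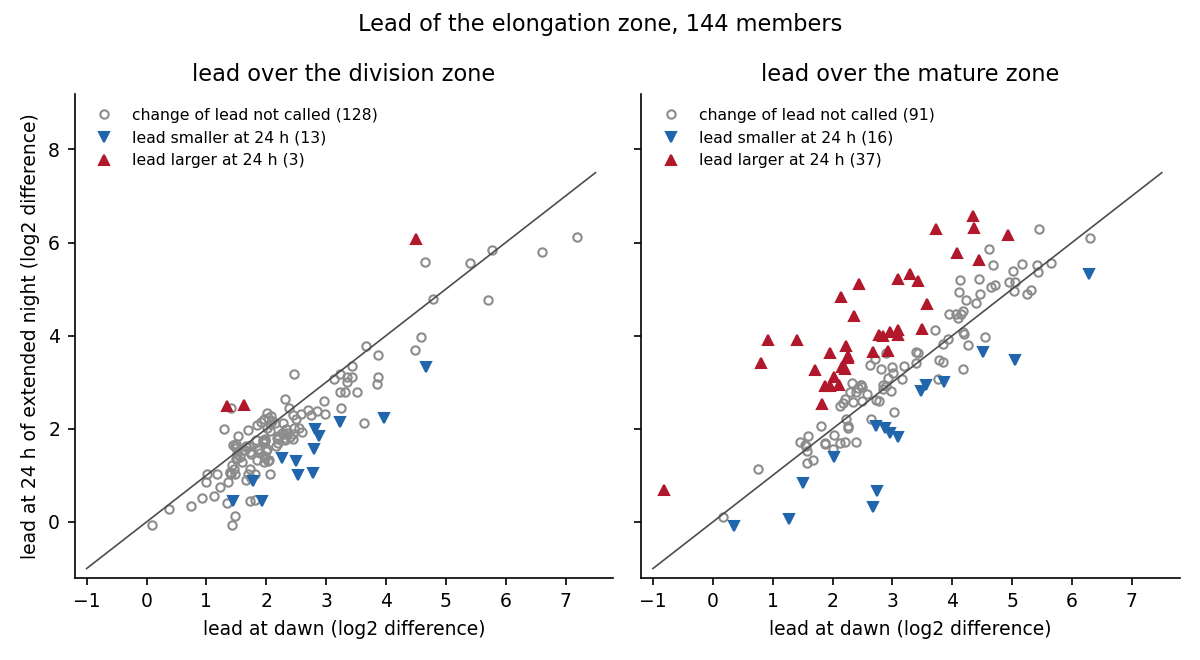
Lead of the elongation zone over the division zone (left) and the mature zone (right) at dawn (horizontal axis) and at 24 h of extended night (vertical axis), as log2 differences of group means, one symbol per member, with the line of equal leads. Triangles pointing down mark members whose lead was called smaller (13 on the left, 16 on the right) and those pointing up a larger one (3 and 37).

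Over the normal night the members stayed close to their dusk levels, given here without a test because the dusk arrays chose them. The median difference between dawn and dusk was 0.20, 0.09 and 0.08 (division, elongation, mature zone), against 0.01, 0.01 and 0.02 over all probe sets. In the elongation zone 8 of 144 members differed by 1 or more, 4 of them upward. Differences ran from -2.07, for Zm.11136.1.A1_at, to 2.39, for LOC542000, whose elongation-zone levels went from 8.36 and 8.85 to 10.98, 10.92 and 11.07. At 14 h, which falls at the same hour of the cycle as dusk, the median difference from dusk in the elongation zone was -0.52, also without a test, and 0.01 and 0.06 in the division and mature zones.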

How the data were processed

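RNA from 3 leaf zones at 5 times was hybridised to a 1-colour maize oligonucleotide array. The deposited table gives log2 signal for 17734 probe sets, made by the authors; per the submitters' processing notes the method was RMA, whose version and settings were not given in the sources used here. RMA sets all arrays to one distribution, so a change of the whole RNA pool is not visible. The number of arrays limits the precision. Values were used as deposited, after 113 control (AFFX) and 66 reporter (RPTR) probe sets were left out, and 0 columns belonged to other samples. Groups come from the labels; 3 of the 45 columns hold no values.

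Group means of 15 groups were fitted with limma 3.58.1 in R 4.3.3 (lmFit and eBayes, 27 residual and 4.01 prior degrees of freedom), on all 17555 probe sets, with Benjamini-Hochberg adjustment over them within each of 25 comparisons and a threshold of 0.05; "called" means past it. The fit was tested on simulated data. A change of lead is the interaction of zone and time. Values after ± are limma standard errors. Tables were joined with Python 3.11.15.

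The members and gene lists were chosen with earlier results of these data known. The comparison of 24 h with 14 h and the count of larger leads were added after values were seen. Named are all members with 1 gene symbol in the platform annotation (names updated through RefSeq for 18 of 19), and, among those with none, the 2 with the largest dusk lead, the 2 largest called rises and the 2 largest called falls at 24 h in the elongation zone. A gene on a list is represented by its brightest probe set. Names came from tables only, and no sequence or genome position was used. The 144 members carry 142 identifier numbers, and 3 members share one of them. Alternatives were array weights, centring, a filter on dim probe sets, a trended robust prior, a replicate block, a fit of the compared groups alone and leaving out each array. The replicate block was set over all times and, for the zone comparisons only, also within each time. Samples with the same replicate number and time deviated together more than those of different numbers, though not in every pair. The main fit did not pair samples by number, so a deviation that they share is not accounted for in it.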

Additional observations from a re-analysis of the deposited data

Results flagged for a closer look

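Each of these results was singled out because the change from dawn (the end of the night) to 24 h of extended night differed between zones by a test of the difference itself (the interaction term in limma, adjusted over all probe sets). All values are changes in the elongation zone minus changes in the other zone, on the log2 scale.

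Against the division zone the difference was negative, with the division zone rising more or falling less, for plt2 (-1.35 ± 0.34, adjusted p = 0.021), expB4 (-1.2 ± 0.24), pip2b (-1.0 ± 0.19) and Zm.2541.1.A1_at (-1.48 ± 0.41). It was positive for Zm.7164.1.A1_at (1.57 ± 0.31).

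Against the mature zone it was positive, and the lead grew, for tub4 (2.03), plt2 (1.69), nip1a (1.18), expB4 (1.12), LOC542763 (1.10), porin1 (0.97), Zm.7164.1.A1_at (2.23) and Zm.14687.1.S1_s_at (2.61). For pip2b it was positive too (1.50), but without a lead at dawn: its difference from the mature zone was -0.82 at dawn and 0.68 at 24 h. In the remaining members flagged against this zone the difference of changes was negative. The lead shrank in these, namely glu1 (-1.21), LOC542057 (-0.87), Zm.5654.1.A1_at (-0.96), Zm.1288.3.A1_s_at (-1.56) and Zm.2541.1.A1_at (-2.35). In plt2, expB4 and pip2b the differences from both neighbouring zones passed the test, with opposite signs.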

How the results depend on the processing

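Of 3064 recomputed values of the 25 described members, 2901 kept their direction and side of the threshold, 90 passed it newly, 72 no longer passed it and 1 changed sign with a call: the change of aos1 in the mature zone at 24 h, which ran from -0.70 to 0.59 as arrays were left out and was 0.59 (adjusted p = 0.01) without replicate 1 of that zone at dawn. The causes were not tested. The counts of members above both zones moved little: leaving out single arrays gave 137 to 140 at dawn, 137 to 139 at 6 h, 127 to 132 at 14 h and 129 to 132 at 24 h.

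With array weights the elongation zone had 7 higher and 34 lower at 6 h, 22 higher at 14 h, 39 higher at 24 h, and 7 lower at 24 h than at 14 h; the lead over the division zone was smaller in 7 at 6 h, 57 at 14 h and 60 at 24 h and larger in 1, 6 and 7; the lead over the mature zone was smaller in 10 at 6 h and 10 at 24 h; the division zone had 11 higher and 48 lower at 6 h, 31 higher at 14 h and 85 higher at 24 h; the mature zone had 4 higher at 6 h and 7 higher and 22 lower at 14 h. With the compared groups alone the elongation zone had 41 lower at 6 h, 38 higher at 24 h and 9 lower at 24 h than at 14 h; the lead over the division zone was smaller in 47 at 14 h and 28 at 24 h and larger in 7 at 14 h; the division zone had 36 lower at 6 h and 8 lower at 24 h; the mature zone had 2 higher and 6 lower at 6 h, 9 higher and 20 lower at 14 h, and 6 higher at 24 h. The shares of all probe sets called changed under these fits too. With array weights 18.9% were lower in the elongation zone at 24 h than at 14 h. Under that fit the lead over the division zone was smaller in 0.649% at 6 h and larger in 0.678%, 8.14% and 9.32% at 6, 14 and 24 h. With the compared groups alone 12.7% were lower in the elongation zone at 24 h than at 14 h. The lead over the division zone was then larger in 3.53% at 14 h. The other shares under these fits are given above. These counts therefore cannot be set beside the shares of the main fit. With centred arrays 2 members were higher in the elongation zone at 6 h and 8 lower in the division zone at 24 h, and without dim probe sets the lead over the division zone was smaller in 0 at 6 h and larger in 1 at 14 h. A margin of 1 would give 349 members and one of 2 would give 80. By replicate 1 alone 158 probe sets would be chosen (134 shared), and by replicate 2 alone 141 (131 shared).

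Leaving out 1 array at a time gave these ranges. In the elongation zone 0 to 6 were higher and 7 to 15 lower at 6 h, 12 to 14 and 66 to 74 at 14 h, 14 to 25 and 14 to 25 at 24 h, and 57 to 76 were higher and 2 to 4 lower at 24 h than at 14 h. In the division zone 2 to 6 were lower at 6 h, 15 to 18 higher and 35 to 45 lower at 14 h, 31 to 61 higher and 0 to 6 lower at 24 h, and 59 to 77 higher and 3 to 7 lower at 24 h than at 14 h. In the mature zone 4 to 9 were higher and 11 to 26 lower at 6 h, 12 to 17 and 31 to 43 at 14 h, and 8 to 11 and 34 to 52 at 24 h. The lead over the division zone was smaller in 13 to 24 at 14 h and 5 to 28 at 24 h, and larger in 0 to 1 at 6 h and 1 to 5 at 24 h. The lead over the mature zone was smaller in 9 to 18 at 6 h, 45 to 56 at 14 h and 9 to 18 at 24 h, and larger in 5 to 15, 18 to 24 and 35 to 48. Where an array was left out of a group of 2, the lone array was assumed to vary like the other groups.

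Same-numbered samples of one time correlated with a median of 0.0951 in their deviations from group means (40 pairs, 18 over 0.1, lowest -0.133). Samples of one time with different numbers had a median of -0.0476 (78 pairs, 7 over 0.1). With the replicate number as a block 139, 138, 132 and 132 members were above both zones at the 4 times and 76 were lower in the elongation zone at 14 h. No count of members moved by over 1.5 times under that block. It gave each number a single effect over all times, and same-numbered samples of different times had a median correlation of -0.00903 (234 pairs). It therefore does not account for a deviation shared within a time. A block within each time, which had not been planned, was fitted for the zone comparisons. None of its 16 counts of members moved by over 1.5 times. The planned search for promoter motifs was not run, since no sequence table was used here. Members below the level of the reporter probe sets give compressed differences, and at least 25 of the 66 reporter probe sets were themselves called lower in the elongation than in the mature zone at each tested time.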
